A study of Mus musculus with 30 samples.

Results

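Esrrb is an orphan nuclear receptor that binds DNA near many genes of pluripotency in mouse embryonic stem (ES) cells. Some transcription factors stay on part of their sites when chromosomes condense in mitosis, which is called mitotic bookmarking, and leave the rest. Many Esrrb sites that are left lie inside genes, away from their starts, where enhancers are often found.

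The regions described here are the Esrrb ChIP-seq peaks of classes 4 and 5, the classes the authors' peak table calls Lost, that lie inside a gene body. A peak was taken when its centre lay more than 1000 bp from every transcription start in the exonic table and between the start and end of at least 1 gene there. This gave 5423 of the 14559 peaks in the table, 2657 of class 4 and 2766 of class 5. The other 9136 peaks were 692 Bookmarked gene-body peaks (classes 1 to 3), 964 lost promoter peaks, 6192 lost intergenic peaks and 1288 Bookmarked peaks at promoters or between genes. The classes were set from the heights of these peaks, and the sources used here do not give how; the members were thus chosen by measured ChIP-seq heights. Height differences between mitosis and interphase, and between the classes, are therefore descriptions of the choice. Those between withdrawn and DOX libraries use the same heights and are given as descriptions too.

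All cells were ES cells of strain 129/Ola grown in serum medium with LIF. The ChIP-seq groups were mitosis and interphase (asynchronous) cells after 48 h of doxycycline (DOX) withdrawal, with 2 libraries each, and mitosis and interphase cells with DOX, with 4 libraries each. They came from EKOiE, an Esrrb knockout line that carries a DOX-inducible Esrrb transgene, but for replicate 2 of mitosis with DOX and of interphase with DOX, made from wild-type E14Tg2a cells. The RNA-seq groups were early G1, late G1 and G2 cells after 24 h of withdrawal and the same phases with DOX, 3 libraries each, all from EKOiE cells with a Ccna-Gfp reporter. Withdrawn and DOX samples of these lines thus both carry the Esrrb knockout and the transgene. Whether the libraries of 1 group stem from different cultures is not stated, so their spread may be technical.

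The ChIP-seq libraries held 10.7 to 67.5 M reads. Peaks took 0.303% to 0.707% of the reads after withdrawal, 1.11% to 1.29% in mitosis with DOX and 3.11% to 9.83% in interphase with DOX. The withdrawal replicates stood apart from each other: replicate 1 had 3466 empty peaks in mitosis and 2418 in interphase, and replicate 2 had 3 and 49. Exonic counts totalled 11.1 to 31.8 M and intronic counts 6.10 to 20.8 M per library. G2 withdrawn replicate 1 had the most of both and also stood apart in the principal components of the exonic levels. All 9 ES-cell markers looked at were detected, with a summed level of 3879.7 to 4972 CPM (counts scaled to library size) after withdrawal and 4469 to 5592 CPM with DOX, and 3 of them fell (Esrrb, Klf4 and Tfcp2l1). Markers of fibroblasts, primitive endoderm and trophoblast summed to at most 21.7 CPM in any library, and of these Gata6, of primitive endoderm, fell. Summed neural markers (Sox1, Pax6 and Nes) stood at 50.3 to 72.2 CPM after withdrawal and 39.7 to 69.1 CPM with DOX, and Nes and Pax6 rose. Their part in the responses of host genes was not tested.

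Peak height is given as log2 RPKM, the reads per kb of peak scaled to the depth of the library. A peak without reads stands at the value of 0.9 read, so its height follows from its width and that depth. After withdrawal, the median height over the 5423 peaks was -3.06 and -1.14 in mitosis and -3.22 and -1.55 in interphase. In both states the first replicate was more than 1 log2 unit below the second. With DOX, the median height in mitosis was -1.45, -0.53, -0.61 and -0.76 in replicates 1 to 4. In interphase with DOX it was 0.61, 1.501, 1.23 and 2.23. Every mitosis library with DOX was thus below every interphase library with DOX.

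Compared peak by peak with limma, the height was lower in mitosis than in interphase with DOX at 5106 of the 5423 peaks and higher at 0, where 91.4% of all peaks in the table were called lower and 0.0481% higher. The classes were set from heights, so this count is a description. The median log2 difference was -2.32 in these peaks, -1.49 in Bookmarked gene-body peaks and -2.26 over all peaks. In each of 4844 members, all 4 mitosis libraries with DOX lay below all 4 interphase libraries with DOX. The same was true of 88% of all peaks.

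In interphase the height was lower after withdrawal than with DOX at 5422 of the 5423 peaks (median log2 difference -3.82), against 99.6% of all peaks. The peaks were chosen by measured heights, so the withdrawal counts are descriptions too. All interphase libraries with DOX lay above both withdrawn ones in 5408 members and in 99.4% of all peaks. In mitosis, 646 members were lower after withdrawal than with DOX, against 22.4% of all peaks, and 0 were higher. That count rested on single libraries: 0 peaks were called without mitosis withdrawn replicate 1, 2302 without mitosis withdrawn replicate 2, and 166, 290 and 95 without mitosis DOX replicates 2, 3 and 4. A count test on the recovered reads (edgeR) called 0. Scaling every library to the same median height removes by construction any change common to all peaks. The median difference of the members in mitosis was -1.21 as deposited and 0.19 after that scaling.

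The remaining height in mitosis with DOX differed between the classes. The classes were set from heights, so the counts by class below are descriptions of that choice. Among the 2657 class 4 peaks, 1669 (62.8%) had all 4 mitosis libraries with DOX above both mitosis libraries after withdrawal. Among the 2766 class 5 peaks this held for 222 (8.03%). It held for 687 of the 692 Bookmarked gene-body peaks and for 47.4% of all peaks. All 646 members called lower after withdrawal in mitosis were of class 4, and 0 class 5 peaks passed in limma, where 85 had an unadjusted p under 0.05. Mitosis and interphase after withdrawal gave 0 calls among the members in limma and in edgeR on recovered reads (36 had an unadjusted p under 0.05 in limma), as did all other peaks (0% called). The median difference there was 0.31. It turned to -0.51 without mitosis withdrawn replicate 2 and to -0.48 without interphase withdrawn replicate 1.

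**Figure D1:**
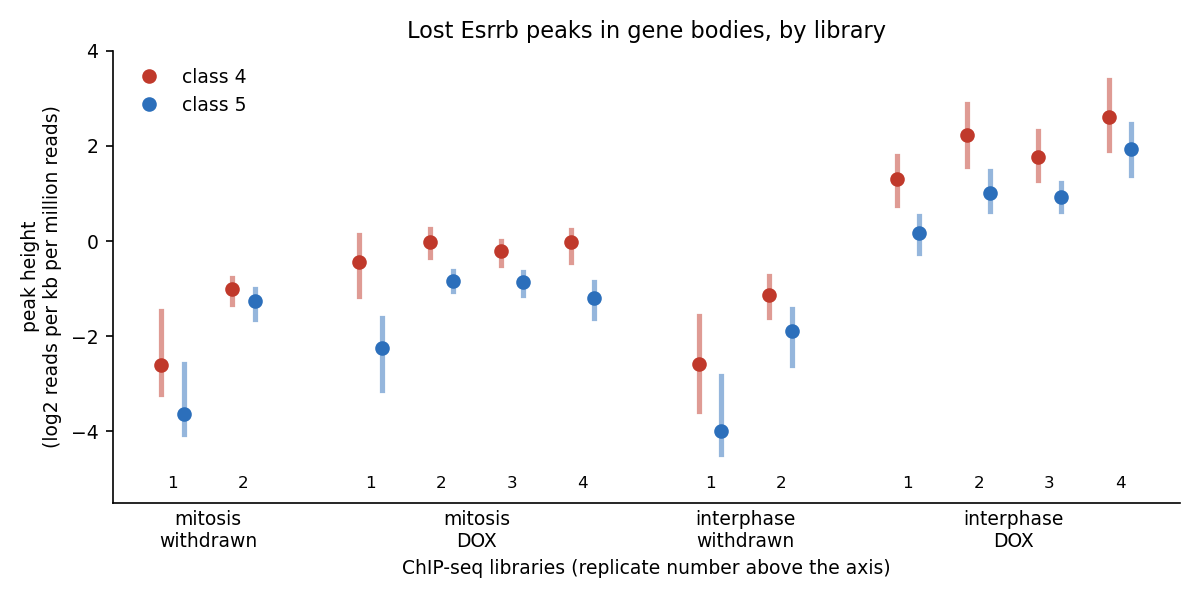
Height of lost gene-body peaks in each ChIP-seq library, for class 4 (red, 2657 peaks) and class 5 (blue, 2766 peaks). The vertical axis is log2 RPKM, points are medians over peaks, bars run between the quartiles and the numbers above the axis are replicates. In mitosis, class 4 medians after withdrawal (-2.62 and -1.002) lie below all those with DOX (-0.45 to -0.02), whereas class 5 medians after withdrawal (-3.63 and -1.26) overlap those with DOX (-2.26 to -0.84).

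Class 4 and class 5 lost a similar height in mitosis from different starting levels. The median of the mean height in mitosis with DOX was -0.18 in class 4 and -1.33 in class 5. In interphase with DOX it was 1.96 in class 4 and 0.97 in class 5. The difference of mitosis minus interphase had a median of -2.21 in class 4 and -2.39 in class 5, so that the fold between the states was close in both. The classes overlapped more in interphase than in mitosis. In interphase 532 class 4 peaks (20.02%) lay under the upper quartile of class 5, and in mitosis 141 (5.31%) did.

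The gap between the classes was present in every library, including those after withdrawal. Class 4 medians exceeded class 5 medians by 0.64 to 1.81 in mitosis with DOX and by 0.66 to 1.22 in interphase with DOX. After withdrawal the gap was 1.01 and 0.26 in mitosis and 1.42 and 0.76 in interphase. Since height is per kb, part of the gap goes with width. Class 4 peaks had a median width of 600 bp and class 5 peaks of 1050 bp, in a table whose widths go in steps of 150 bp. Counted per peak instead of per kb, the class 4 median over the class 5 median ranged from 1.07 to 2.45 in mitosis with DOX and from 1.12 to 1.56 in interphase with DOX, and in mitosis withdrawn replicate 2 it was 0.783.

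Within a narrow range of widths the class medians still differed, with DOX and after withdrawal. Among peaks of 600 to under 900 bp, the median mitosis height with DOX was -0.14 in 978 class 4 peaks and -1.63 in 890 class 5 peaks, and the interphase height was 1.998 in class 4 and 0.71 in class 5. After withdrawal these peaks had a median mitosis height of -1.87 in class 4 and -2.60 in class 5, and an interphase height of -1.84 in class 4 and -3.30 in class 5. In peaks of 2100 bp or more, the mitosis values with DOX were -0.77 in 112 class 4 peaks and -1.06 in 212 class 5 peaks, and the interphase values were 1.42 in class 4 and 1.24 in class 5. After withdrawal the widest peaks had -1.64 in class 4 and -1.89 in class 5 in mitosis, and -1.77 and -2.10 in that order in interphase. The 2 class medians thus lay closer in the widest peaks.

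**Figure D2:**
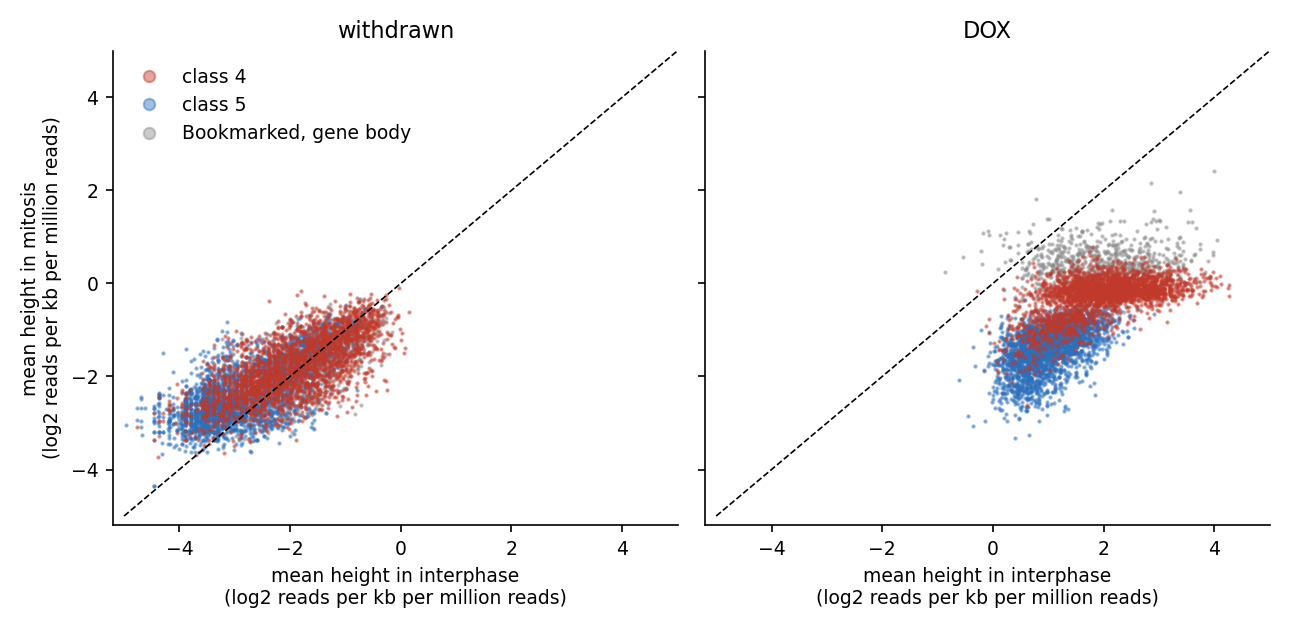
Mean height of each gene-body peak in interphase (horizontal) and in mitosis (vertical), both in log2 RPKM, after withdrawal (left) and with DOX (right); the dashed line marks equal heights. With DOX, class 4 (red) lies mostly in a band around its mitosis median of -0.18, class 5 (blue) around -1.33, and Bookmarked gene-body peaks (grey) above both. After withdrawal the classes overlap along the line.

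The strongest members are named by their mean interphase height with DOX. The highest class 4 peak lay in Tns3, which encodes tensin 3, a focal adhesion protein, at chr11:8469301-8469750 (mm9), 95012.5 bp from the start of the gene. Its height in mitosis with DOX was -0.62, -0.12, 0.73 and -0.12, against 3.12, 4.45, 4.18 and 5.28 in interphase with DOX. All interphase libraries stood over 2 log2 units above all mitosis libraries, and the difference of the means was -4.29 ± 0.51 (SE).

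Next came peaks in Arvcf, a catenin of cell junctions, and in Tfcp2l1, a regulator of naive pluripotency. The Arvcf peak (chr16:18387001-18387600) had a mean height of -0.26 ± 0.20 in mitosis with DOX and 4.26 ± 1.18 in interphase with DOX (SD, n = 4 each). After withdrawal the Tfcp2l1 peak (chr1:120544651-120544950) was at -2.63 and -2.09 in mitosis and -3.15 and -2.02 in interphase, below all 8 DOX libraries. The replicate 1 values, -2.63 and -3.15, are those of an empty peak and not measured heights. The Tfcp2l1 peak stood at -1.45, 0.18, 0.63 and 0.24 in mitosis with DOX and at 2.95, 4.42, 4.16 and 5.45 in interphase with DOX. The other 3 of the 6 strongest class 4 peaks lay in Zfpm1, a cofactor of GATA factors, in Dars, an aminoacyl-tRNA synthetase, and in Vti1a, a vesicle-fusion protein. Their mean heights were -0.02, 0.15 and -0.08 in mitosis with DOX and 4.12, 4.11 and 4.05 in interphase with DOX.

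The strongest class 5 peaks were lower. The highest, in Add1, which encodes the cytoskeletal protein adducin 1 (chr5:34932151-34933500), had -1.65 and -0.59 in mitosis and -0.92 and -0.96 in interphase after withdrawal. With DOX it had -0.42, -0.87, -0.71 and -0.61 in mitosis and 1.62, 2.77, 2.498 and 4.72 in interphase. The withdrawn and DOX libraries of mitosis overlapped. The peak in Kcnt2, a potassium channel gene, overlapped likewise in mitosis, with -0.16 and -0.87 after withdrawal and a mean of -0.52 with DOX, and its mean was 2.61 in interphase with DOX. The next 4 were in Frem2, an extracellular matrix gene, Myom2, a muscle M-band gene, Rabgap1l, a Rab GTPase-activating protein gene, and Siah3, with mean interphase heights with DOX between 2.46 and 2.55. All 12 named peaks had all mitosis libraries with DOX below all interphase libraries with DOX.

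Around the distance limit, the nearest members lay in Fzd4, a Wnt receptor gene (class 5, 1000.5 bp from a start, mean height -0.71 in mitosis and 1.00 in interphase with DOX), and Akap8l (class 4, 1002.5 bp, 0.37 and 1.91). Just under it were peaks in Aspdh (class 4, 996.5 bp, -0.58 in mitosis and 1.95 in interphase) and Nek8 (class 4, 998.5 bp, -0.22 and 2.11). Within 500 bp of the limit there were 186 members over it and 285 lost peaks under it.

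The members were spread along their genes. Of the 5423 peaks, 5397 lay in 1 gene and the rest in overlapping genes. The median distance to the nearest transcription start was 19455.5 bp for class 4 and 22121 bp for class 5, and 610 members (11.2%) lay over 100000 bp from any start. Along the host, 316 of 2648 class 4 peaks (11.9%) and 248 of 2749 class 5 peaks (9.02%) fell in the first 10% of the gene. In the last 10% it was 250 class 4 peaks (9.44%) and 306 class 5 peaks (11.1%). Bookmarked gene-body peaks had 14.04% in the first 10% and 8.39% in the last. These shares were not tested.

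**Figure D3:**
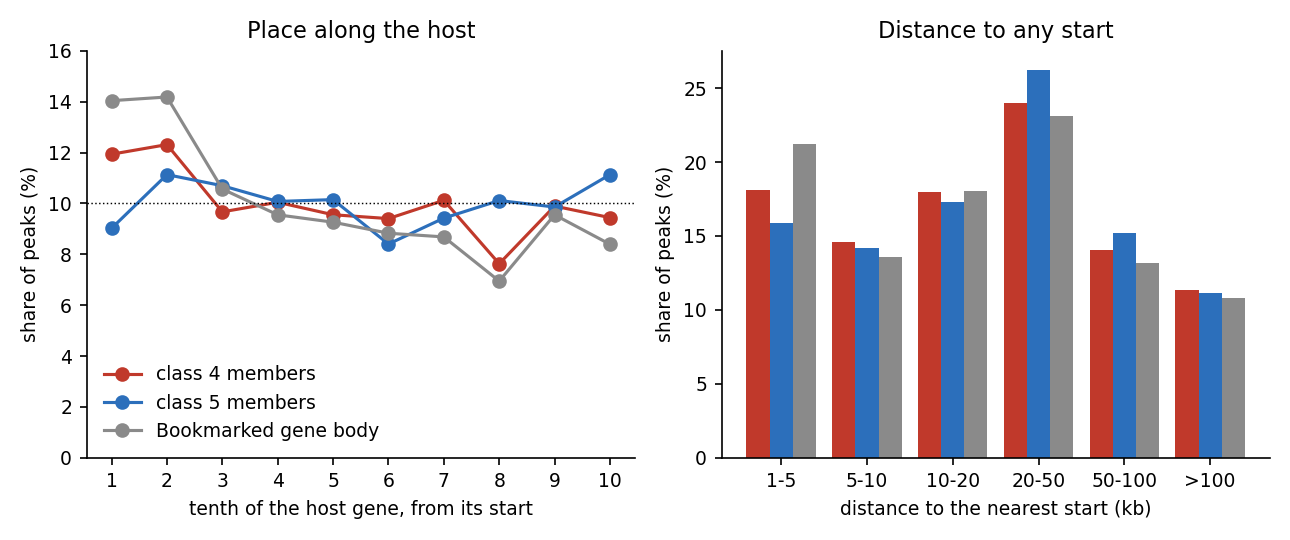
Place of gene-body peaks. Left, share of peaks (%) in each 10% of the length of the host gene from its start, for class 4 members (red), class 5 members (blue) and Bookmarked gene-body peaks (grey), with an even spread as a dotted line; class 4 holds 11.9% in the first 10% and class 5 9.02%. Right, share of peaks (%) by distance to the nearest transcription start in kb.

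The lost share was higher among gene-body peaks than among promoter or intergenic peaks, and the class 4 share of the lost peaks was lower there. Of all gene-body peaks, 88.7% were lost, of the promoter peaks 83.0% and of the intergenic peaks 85.03%. Class 4 made up 49.0% of the lost gene-body peaks, 60.5% of the lost promoter peaks and 54.6% of the lost intergenic peaks. Chromosome X held 87 members, of which 15 (17.2%) were of class 4, whereas on the autosomes class 4 made up between 38.2% (chromosome 14) and 57.7% (chromosome 9). The X members had lower heights than autosomal members in each DOX library, by 0.08 to 1.00 in mitosis and by 0.14 to 0.84 in interphase. After withdrawal they were higher in replicate 1 (by 0.26 in mitosis and 0.49 in interphase) and lower in replicate 2 (by 0.95 and 0.58).

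Neighbouring members of 1 gene had a median gap of 10200 bp, and some lay close together. Of 2194 neighbouring pairs, 273 were separated by under 1000 bp, and 55 of these 273 abutted. Both peaks were of the same class in 183 of the 273 close pairs (67.0%) and in 394 of the 760 pairs at 20000 bp or more (51.8%). The close pairs include the abutting ones, of which 47 of 55 (85.5%) shared a class. Abutting peaks may share reads from 1 site.

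The 5423 peaks lay in 3258 of the 20300 genes of the exonic table. Class 4 alone was found in 1291 of these host genes, class 5 alone in 1282 and both in 685. In all, 2152 hosts held 1 member, 963 held 2 to 4 and 143 held 5 or more. Hosts were long genes, with a median of 45949.5 bp against 13746 bp for the other genes. A Bookmarked peak also lay in 364 of the hosts and a lost promoter peak in 242.

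The genes with the most members were Grik3, a kainate receptor gene (14 members), Camta1, a calmodulin-binding transcription activator gene (13), Esrrb itself and Tns3 (12 each), and Coro2b, a coronin gene of the actin cytoskeleton (11). Coro2b shares that number with 4 other genes and comes first by name. The classes were mixed unevenly among them. Esrrb and Tns3 each had 10 class 4 and 2 class 5 peaks, whereas Camta1 had 2 class 4 and 11 class 5 peaks. Grik3 had 8 class 4 and 6 class 5 peaks, and Coro2b 3 and 8. Esrrb and Grik3 also had 1 Bookmarked peak each, and Tns3 had 2.

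Within Esrrb (chr12:87702066-87862578, plus strand, mm9), the 10 class 4 peaks had mean heights of -0.84 to -0.01 in mitosis with DOX and 1.52 to 2.92 in interphase with DOX. The strongest of them, at chr12:87839401-87840000, was 137634.5 bp from the start. The class 5 peak at chr12:87781651-87782400 (-2.17 in mitosis and 0.29 in interphase with DOX) ended 150 bp before a class 4 peak at chr12:87782551-87783600 (-0.36 and 1.57). Peaks of both classes thus stood side by side within the gene.

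**Figure D4:**
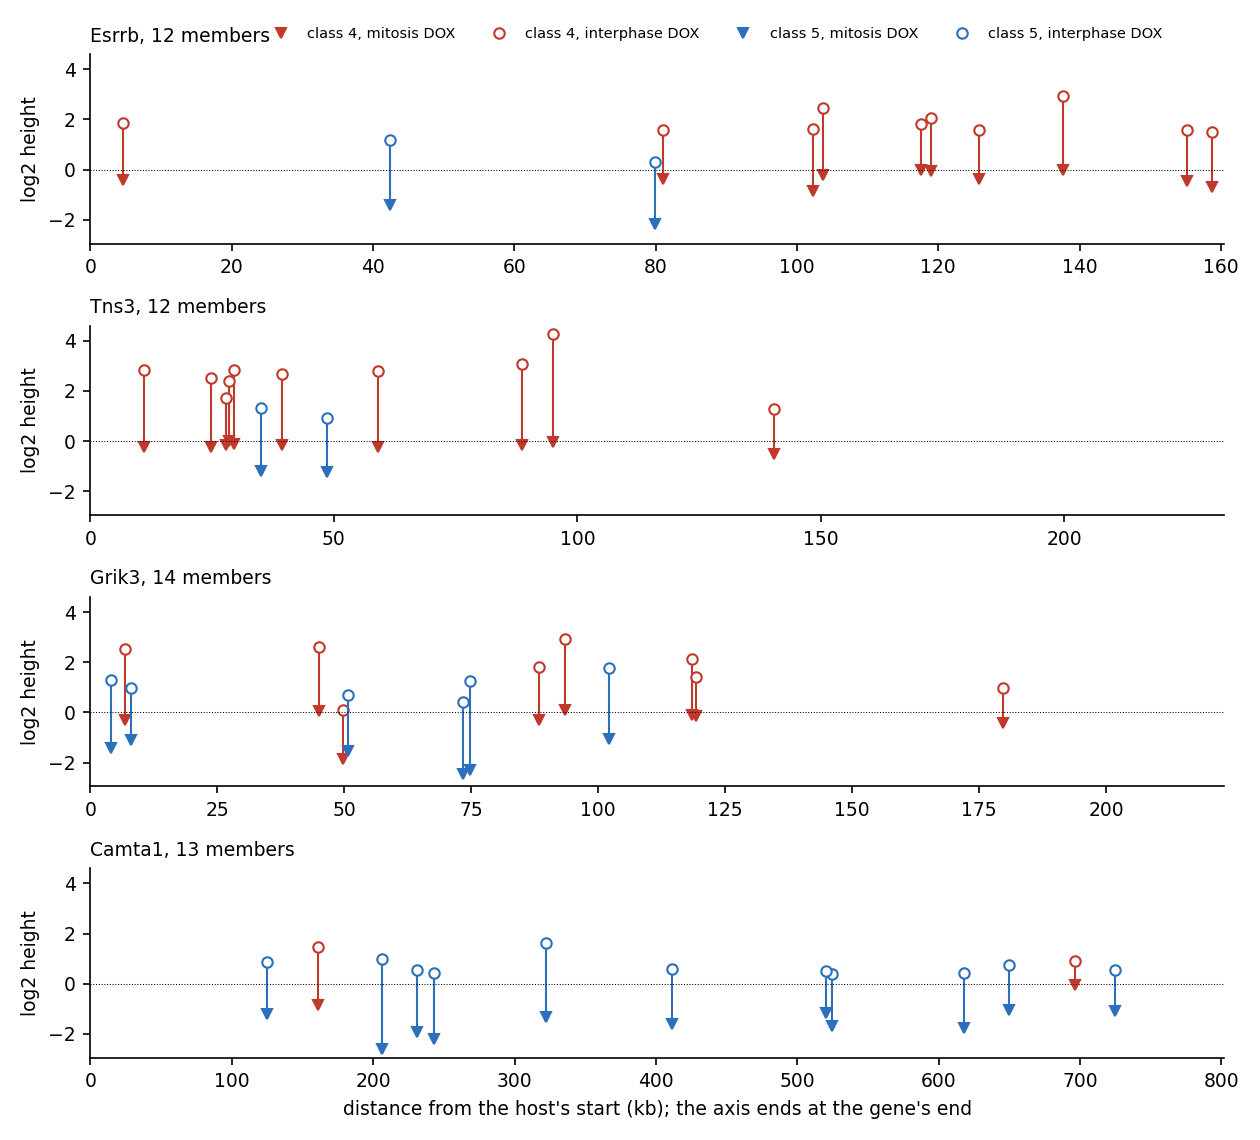
Members along Esrrb, Tns3, Grik3 and Camta1, the 4 hosts with the most members, by distance from the start of the gene in kb. Triangles show the mean height in mitosis and open circles that in interphase, both with DOX, in log2 RPKM (n = 4), red for class 4 and blue for class 5. The circle lies above the triangle in every member shown, and Camta1 carries mostly class 5.

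The RNA-seq asks whether hosts of these peaks respond when Esrrb is withdrawn. Esrrb was read first, as a check of the labels: its exonic level was 139.7 to 195 CPM in the 9 withdrawn libraries (median 173) and 203 to 341 CPM in the 9 DOX libraries (median 278), with no overlap. The log2 change over the 3 phases was -0.68 ± 0.08 (SE; edgeR adjusted p = 3.75e-05), and -0.13 ± 0.07 in introns (edgeR adjusted p = 0.388). These counts do not separate transgene reads from those of the knocked-out locus. In bulk RNA, fewer cells that express a gene and less RNA per cell cannot be told apart either.

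Of the 3258 hosts, 2895 (88.9%) passed the filter on low counts, against 65.7% of the genes with no member. In the mean over the 3 phases, 350 hosts fell and 296 rose (edgeR adjusted p under 0.05), where 8.47% of all tested genes fell and 8.43% rose. That is 12.1% of the tested hosts that fell and 10.2% that rose, and the median log2 change was -0.01 in hosts and -0.0044 over all genes. Hosts therefore moved in both directions at a share above the background, with a median close to 0. Hosts were also longer than other tested genes, and whether length or expression goes with that share was not tested.

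The counts depended on how the libraries were matched. Replicate numbers were taken to pair the libraries. When that number entered the fit as a block, 621 hosts fell and 592 rose (18% of all genes each way). The mean over phases takes the 3 phases of a replicate number as separate samples. With counts summed over the phases, 8 hosts fell and 5 rose (0.101% and 0.0539% of all genes). With the sums and the block together, 260 fell and 261 rose (5.02% and 6.66% of all genes). Leaving out DOX replicate 2 of every phase left 355 calls of hosts in place of 646.

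Hosts of both classes moved in both directions. Among hosts of class 4 alone, 125 (10.9%) fell and 126 (11%) rose of 1143 tested, and among hosts of class 5 alone, 132 (11.8%) fell and 92 (8.26%) rose of 1114. Of 638 hosts with both classes, 93 (14.6%) fell and 78 (12.2%) rose. The rises of class 5 hosts lay at the share over all genes (8.43%). The median log2 changes were 0.01 in class 4 hosts, -0.04 in class 5 hosts and -0.01 in hosts of both. In the blocked fit 19.5% fell and 22.6% rose in class 4 hosts, 21.8% and 17.1% in class 5 hosts, and 24.3% and 22.4% in hosts of both, against 18% each way over all genes. No test of the difference between classes was made.

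More members in a gene did not go with falls alone. Among hosts with 1 member, 207 fell and 176 rose of 1871 (11.1% and 9.41%). Among hosts with 2 to 4 members, 125 fell and 93 rose of 888 (14.1% and 10.5%), and among those with 5 or more, 18 fell and 27 rose of 136 (13.2% and 19.9%). The last group is also the longest, with a median gene length of 152126 bp against 33852 bp for hosts of 1 member. In the 2562 tested hosts without a Bookmarked peak, 296 fell and 260 rose (11.6% and 10.1%), and in the 333 with one, 54 fell and 36 rose (16.2% and 10.8%).

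In single phases fewer hosts passed. Early G1 had 7 falls and 3 rises (all genes, 0.121% and 0.0426%), late G1 had 18 and 12 (0.277% and 0.185%) and G2 had 40 and 24 (0.632% and 0.341%). With the block these were 119 and 73 in early G1 (2.2% and 1.83%), 201 and 172 in late G1 (4.24% and 4.8%), and 246 and 222 in G2 (5.44% and 5.77%). These single-phase counts rested on single libraries. Without G2 withdrawn replicate 1, the library that stood apart, G2 had 10 calls of hosts in place of 64. It had 18 without withdrawn replicate 3, 15 and 18 without DOX replicates 1 and 2, 36 without DOX replicate 3 and 72 without withdrawn replicate 2. Leaving out each library in turn gave 1 to 6 calls in early G1 in place of 10 and 5 to 19 in late G1 in place of 30. No host differed in its response between any pair of phases in edgeR (0 of 2895 in each of 3 comparisons, with 6, 13 and 16 hosts at an unadjusted p under 0.05; no other tool was run).

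Intronic counts, which stand closer to transcription than exonic ones, gave 70 falls and 120 rises among 3034 hosts, against 1.62% and 1.95% of all genes. With the block there were 237 falls and 437 rises (7.44% and 7.81% of all genes), and with counts summed over the phases 0 of each (0% of all genes; 2.42% and 4.64% of hosts with sums and block, against 1.47% and 2.01% of all genes). In single phases, 0 hosts passed in introns in early G1, 1 fell in late G1 (0.0142% of all genes) and 2 fell in G2 (0.0142% of all genes), and 0 rose in any (0% of all genes). With the block, 16 fell and 17 rose in early G1 (0.213% and 0.263% of all genes), 24 and 14 in late G1 (0.355% and 0.277%), and 33 and 66 in G2 (0.675% and 0.945%). Over the phases, rises of hosts outnumbered falls in introns, as they did over all genes (275 rises and 228 falls). The median log2 change of the hosts was 0.05. Leaving out single replicates gave 36 calls without DOX replicate 2, 80 without DOX replicate 1 and 67 without withdrawn replicate 3, in place of 190. Of the 339 hosts that fell in exons and were tested in introns, 255 (75.2%) were lower there, and 40 (11.8%) fell. Over all genes that fell in exons, 77.3% of 1080 were lower in introns and 9.44% fell. Of the 293 hosts that rose in exons, 256 (87.4%) were higher in introns, and 55 (18.8%) rose. Over all genes that rose in exons, 78.8% of 1121 were higher in introns and 10.97% rose. Exonic and intronic counts come from the same libraries, so these shares are no independent check of the exonic calls, and the hosts' difference from all genes was not tested.

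The largest falls among hosts were those of Kdelr3 and Fabp3. Kdelr3, a receptor for proteins retrieved into the endoplasmic reticulum, had 3.44 to 7.70 CPM after withdrawal (median 5.24) and 17.997 to 26.992 CPM with DOX (median 25.1), a log2 change of -2.11 ± 0.15 (edgeR adjusted p = 2.31e-07). Its single member is a class 5 peak of 2250 bp, 2938.5 bp from the start, with mean heights of -1.02 in mitosis and 1.70 in interphase with DOX. Fabp3, a fatty acid-binding protein gene, had 10.1 to 28.8 CPM after withdrawal (median 19.7) and 36.4 to 108 CPM with DOX (median 66.7), a change of -1.82 ± 0.22 (edgeR adjusted p = 6.56e-05). It holds 1 class 5 peak of low height, -2.02 in mitosis and 0.13 in interphase with DOX. In both genes the withdrawn and DOX libraries did not overlap, and the introns fell too (log2 -1.10 in Kdelr3 and -1.74 in Fabp3).

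Wnt7b, a Wnt ligand gene with 3 class 5 peaks, had 4.04 to 8.93 CPM after withdrawal and 10.2 to 16.5 CPM with DOX, without overlap. Its log2 change was -1.13 ± 0.12 in exons (edgeR adjusted p = 1.47e-05) and -1.06 ± 0.11 in introns. The other 7 of the 10 largest falls ranged from -1.31 to -1.06. They were Jakmip1, which binds Janus kinases and microtubules, Ntn1, the guidance factor netrin 1, Lrrc34, a leucine-rich repeat protein, and Ppp2r2c, a subunit of protein phosphatase 2A. Jdp2, a repressor of the AP-1 family, Igsf21, an adhesion molecule of the immunoglobulin family, and Stard8, a GTPase-activating protein, completed them. In Jakmip1, Ntn1, Jdp2 and Igsf21 the withdrawn and DOX libraries overlapped in exons. The introns of Jakmip1, Lrrc34, Igsf21 and Stard8 did not pass (edgeR adjusted p = 0.28, 0.258, 0.0662 and 0.094). Igsf21 held 11 members, 7 of class 4 and 4 of class 5, and Stard8 lies on chromosome X with 1 member of each class. Besides their members, Igsf21 had 2 Bookmarked peaks, Jdp2 had 1 and Lrrc34 had 1 lost promoter peak.

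The largest rise was that of Ccnd2, cyclin D2, which drives the G1 phase. It had 18.1 to 30.5 CPM after withdrawal (median 23.8) and 2.73 to 8.27 CPM with DOX (median 6.27), a log2 change of 2.13 ± 0.18 (edgeR adjusted p = 3.29e-06) and of 0.70 ± 0.16 in introns. Its member is a class 5 peak 20090.5 bp from the start, at -1.45 in mitosis and 0.86 in interphase with DOX. Lrrk1, a kinase gene, stood at 7.94 to 18.1 CPM after withdrawal and 3.18 to 5.94 CPM with DOX (1.68 ± 0.15; edgeR adjusted p = 5.27e-06). Epas1, a hypoxia-inducible factor subunit, stood at 24.4 to 46.6 CPM after withdrawal and 9.37 to 14.2 CPM with DOX (1.32 ± 0.13; edgeR adjusted p = 9.87e-06). Each of these 3 genes holds 1 class 5 peak and no class 4 peak, and none overlapped between the states.

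The other 7 of the 10 largest rises ranged from 0.98 to 1.26. They were Vrtn (vertnin), Enox1, a cell-surface oxidase, Myrf, the myelin regulatory factor, Aoah, which inactivates lipopolysaccharide, Ak7, an adenylate kinase of cilia, Tenm4, a teneurin, and Foxp1, a forkhead factor. In Vrtn, Enox1 and Tenm4 the withdrawn and DOX libraries overlapped in exons. The introns of Aoah and Ak7 did not pass (edgeR adjusted p = 0.12 and 0.424). Enox1 also had 1 Bookmarked peak, and Vrtn had 1 lost promoter peak. Vrtn lost its call without withdrawn replicate 3, without DOX replicate 1 and without DOX replicate 2. The other 19 of these 20 genes passed without each replicate number in turn, and all 20 passed with summed counts and the block.

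**Figure D5:**
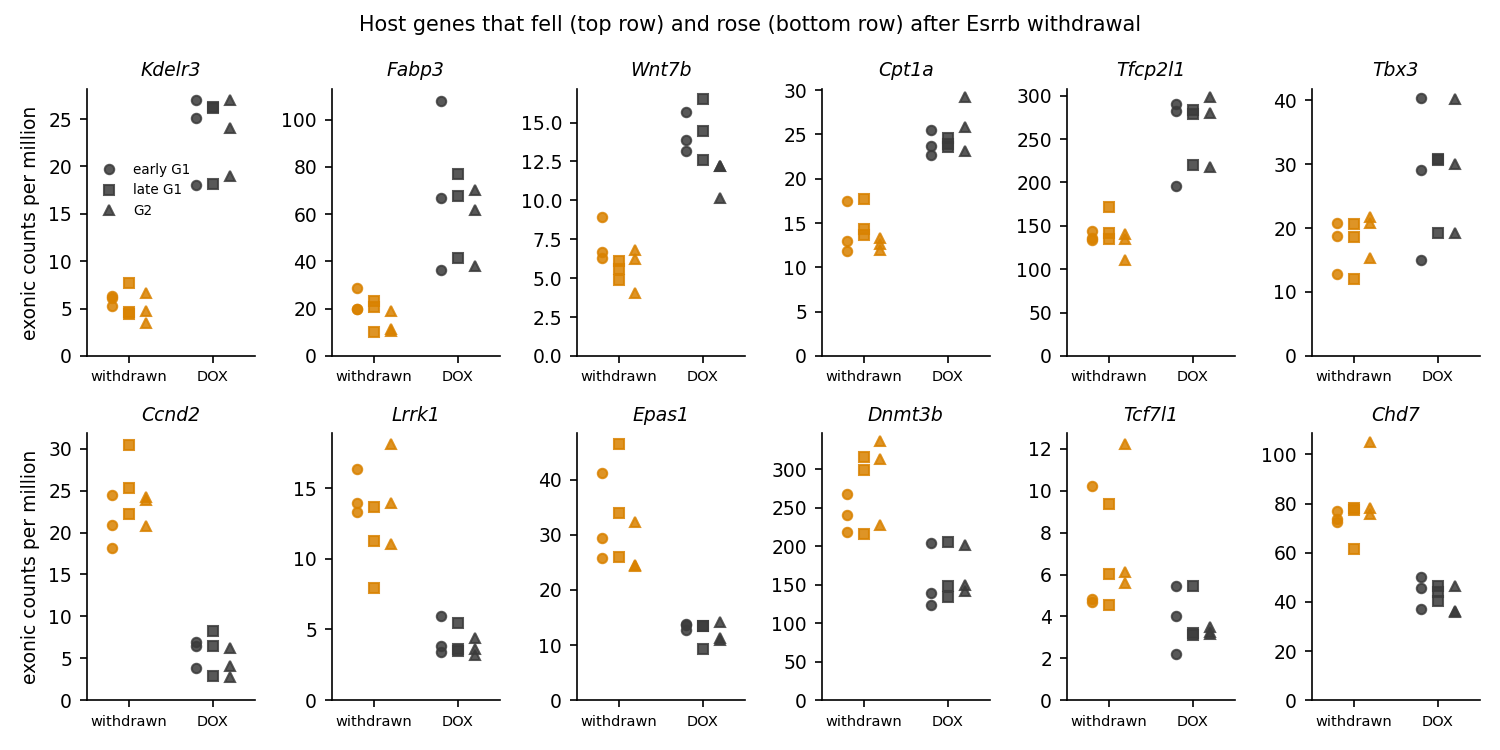
Exonic level of 12 host genes in CPM in each RNA-seq library, withdrawn (orange) left of DOX (dark grey), 9 libraries each, with circles for early G1, squares for late G1 and triangles for G2. The top row shows genes that fell and the bottom row genes that rose; in Kdelr3 the withdrawn libraries lie at 3.44 to 7.70 CPM, below all DOX libraries, and in Ccnd2 at 18.1 to 30.5 CPM, above all of them.

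Genes of the naive pluripotency network came next. Of the 25 genes in that list, 10 were hosts, with 37 members. Of these 10, 4 fell and 0 rose (median log2 change -0.19), where 8.47% of all tested genes fell. These 4 were Esrrb, Tfcp2l1, Tbx3 and Mybl2. Esrrb, with 12 of the 37 members, is the gene under DOX control, so its fall cannot be told apart from the withdrawal itself. Of the 15 other tested genes of the list, 3 fell and 1 rose (median -0.10). With the block 6 of the 10 hosts fell, where 18% of all genes did, and with summed counts and the block 3 fell, where 5.02% of all genes did.

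Tfcp2l1, a grainyhead-family factor of the naive state, had 110.2 to 172 CPM after withdrawal (median 136) and 196 to 298 CPM with DOX (median 279.5), a change of -0.91 ± 0.09 (edgeR adjusted p = 1.55e-05). Its 3 members were all of class 4, with mean heights of -0.10 to 0.49 in mitosis and 2.24 to 4.24 in interphase with DOX. Tfcp2l1 also had 1 Bookmarked peak. Its introns fell by 0.72 ± 0.11 (edgeR adjusted p = 0.00102). Tbx3, a T-box factor of the LIF response, had 12.0002 to 21.6 CPM after withdrawal and 14.96 to 40.3 CPM with DOX, with overlap, and a change of -0.66 ± 0.19 (edgeR adjusted p = 0.0234). Its 3 members were again all of class 4, and the last 2 of them abut. Mybl2, a cell-cycle transcription factor with 5 class 4 members and 1 Bookmarked peak, changed by -0.33 ± 0.11 (edgeR adjusted p = 0.0441, and 0.0625 with summed counts and the block). Tbx3 and Mybl2 each lost their call in 5 of the 6 fits that left out a replicate number of 1 state in all phases.

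In the list of core pluripotency genes 6 of 18 were hosts, of which 1 fell and 3 rose (1 and 5 with the block, and 0 and 2 with summed counts and the block). Of the 12 other tested genes of the list 0 fell and 3 rose (median log2 change 0.25, and 0.31 in the hosts). For this list and those below, the shares over all tested genes were 8.47% fallen and 8.43% risen. They were 18% each way with the block, and 5.02% and 6.66% with summed counts and the block. Tcf7l1, the repressor that Wnt signals relieve, carries 2 class 4 and 6 class 5 members. It had 4.53 to 12.2 CPM after withdrawal and 2.22 to 5.46 CPM with DOX, a log2 change of 0.94 ± 0.23 (edgeR adjusted p = 0.0103) and of 0.61 ± 0.12 in introns. The call was lost without withdrawn replicate 1 and without DOX replicate 1. Lin28a, which blocks let-7 maturation, rose by 0.29 ± 0.06, and the zinc-finger factor Sall4 by 0.42 ± 0.10. Each also had 1 lost promoter peak, and Sall4 had 1 Bookmarked peak. The small fall of the E-protein gene Tcf3, -0.18 ± 0.06, had an edgeR adjusted p of 0.0466, and 0.184 with summed counts and the block; for Sall4 that value was 0.0612.

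Of the LIF and STAT3 list 7 of 18 genes were hosts, and 2 fell (Tfcp2l1 and Tbx3) and 1 rose (3 and 2 with the block, and 2 and 1 with summed counts and the block). The rise was that of Gfpt2, of hexosamine synthesis, with 79.4 to 97.9 CPM after withdrawal and 47.8 to 71.6 CPM with DOX (0.47 ± 0.08; edgeR adjusted p = 0.00137). Of the 11 other tested genes of the LIF and STAT3 list 5 fell and 0 rose (median log2 change -0.26, and -0.08 in the hosts). Of the list for formative and primed cells, 9 of 22 were hosts and 2 of 8 tested rose, Dnmt3a and Dnmt3b, which encode the enzymes that methylate DNA anew (5 rose and 1 fell with the block, and 2 and 0 with summed counts and the block). Of the 13 other tested genes of that list 0 fell and 5 rose (median log2 change 0.44, and 0.25 in the hosts). Dnmt3b had 215 to 336 CPM after withdrawal and 124 to 206 CPM with DOX, without overlap, a change of 0.74 ± 0.13 (edgeR adjusted p = 0.000877), while its introns changed by 0.07 ± 0.08. It holds 1 class 5 peak. Dnmt3a, which also had 1 Bookmarked peak, rose by 0.33 ± 0.08 (edgeR adjusted p = 0.0117, and 0.0677 with summed counts and the block). Grhl2, a grainyhead factor of epithelial genes, rose in introns by 0.49 ± 0.07, and its exonic change of 0.26 ± 0.10 passed with the block alone (edgeR adjusted p = 0.0847, 0.00953 with the block, and 0.136 with summed counts and the block).

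The list of oxidative metabolism under ERR receptors, the nuclear receptor family of Esrrb, had 7 hosts of 39 genes. Of the 6 tested, 5 fell and 0 rose, with a median log2 change of -0.49, where 8.47% of all tested genes fell. With the block 5 fell, and with summed counts and the block 4 fell (18% and 5.02% of all genes). Esrrb, the gene under DOX control, is itself on this list and 1 of the 5. Fabp3, Cpt1a and Sdhb were among the others that fell. Of the 28 other tested genes of the list 4 fell and 3 rose (median -0.04). Cpt1a, which brings fatty acids into mitochondria, had 11.8 to 17.7 CPM after withdrawal and 22.7 to 29.3 CPM with DOX, without overlap. Its change was -0.82 ± 0.09 in exons (edgeR adjusted p = 1.73e-05) and -0.61 ± 0.11 in introns, and its member is a class 4 peak at -0.18 in mitosis and 1.798 in interphase with DOX. Sdhb, a succinate dehydrogenase subunit, fell by 0.31 ± 0.06 and also had 1 Bookmarked and 1 lost promoter peak.

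Of 23 Polycomb and chromatin genes 8 were hosts, and 2 rose while 0 fell. With the block 8 of 8 rose, where 18% of all genes did. With summed counts and the block 6 rose, where 6.66% of all genes did. Chd7, a chromatin remodeller, had 61.6 to 105 CPM after withdrawal and 35.9 to 50.1 CPM with DOX (0.87 ± 0.09; edgeR adjusted p = 1.47e-05). Dnmt3l, the cofactor of the DNA methyltransferases, rose by 0.69 ± 0.12. The 15 other tested genes of that list had 4 rises and 0 falls. In the Wnt list 4 of 7 hosts were tested, and Wnt7b fell while Tcf7l1 rose (2 fell and 1 rose with the block, and 1 and 1 with summed counts and the block). Its 18 other tested genes had 2 falls and 2 rises. In the FGF and ERK list 0 of 7 hosts passed (median log2 change -0.11; 1 fell and 3 rose with the block, and 0 and 0 with summed counts and the block), and 1 fell and 6 rose of its 17 other tested genes. Since the lists are small and were chosen with earlier results known, these counts describe the named genes alone.

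Besides Esrrb, the hosts with 12 or more members changed by less than 0.5 on the log2 scale. Grik3, with 14 members, had 16.8 to 33.0 CPM after withdrawal and 21.4 to 44.9 CPM with DOX, a fall of 0.49 ± 0.13 (edgeR adjusted p = 0.0146) that was lost without withdrawn replicate 1 and without DOX replicate 2 or 3. Camta1, with 13, changed by -0.15 ± 0.10 (edgeR adjusted p = 0.289) and Coro2b, with 11, by 0.26 ± 0.13 (edgeR adjusted p = 0.2). Igsf21, which also has 11, fell by 1.08 ± 0.19 (edgeR adjusted p = 0.00101). Tns3 had 123 to 210.2 CPM after withdrawal and 57.5 to 183 CPM with DOX, and its change of 0.38 ± 0.18 passed with the block alone (edgeR adjusted p = 0.166, 0.00867 with the block, and 0.068 with summed counts and the block).

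Sequence was read at the host promoters, since a genome of the build of the peaks was not used here. Esrrb binds the extended half-site TCAAGGTCA, whose core is AAGGTCA. Both were searched on both strands of RefSeq promoter windows (GRCm38.p6, 250 bases before to 50 bases after the start), and each TCAAGGTCA also counts as an AAGGTCA. TCAAGGTCA was found in 3 of 275 promoters of hosts that fell (1.09%), in 0 of 228 of hosts that rose and in 110 of 27025 promoters overall (0.407%). Among all tested hosts 7 of 2197 promoters held it (0.319%). AAGGTCA was found in 3.64% of the promoters of fallen hosts, 1.32% of those of risen hosts, 3.46% of those of all tested hosts and 4.66% of all. These shares were not tested against each other. Promoters of class 4 hosts held AAGGTCA at 4.14% and those of class 5 hosts at 3.63%. The 3 promoters of fallen hosts with the longer motif are shown because they are the only fallen hosts that carry it in these windows; they were picked after their values were seen. Capitals mark the motif, in the forward direction or as its reverse complement TGACCTTGA.
Acsl6, chr11:54303574-54303873, plus strand: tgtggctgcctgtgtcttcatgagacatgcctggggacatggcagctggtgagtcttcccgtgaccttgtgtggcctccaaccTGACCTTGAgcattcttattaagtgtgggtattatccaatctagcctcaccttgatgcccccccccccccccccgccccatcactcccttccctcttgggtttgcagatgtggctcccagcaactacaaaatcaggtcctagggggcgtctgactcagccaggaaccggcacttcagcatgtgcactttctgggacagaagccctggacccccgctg
Gpr161, chr1:165295516-165295815, plus strand: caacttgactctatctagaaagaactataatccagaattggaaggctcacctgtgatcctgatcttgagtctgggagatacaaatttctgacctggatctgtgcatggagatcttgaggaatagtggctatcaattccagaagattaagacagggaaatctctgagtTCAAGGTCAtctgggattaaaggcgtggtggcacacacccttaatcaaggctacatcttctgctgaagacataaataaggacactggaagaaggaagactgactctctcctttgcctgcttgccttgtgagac
Hcn2, chr10:79716384-79716683, plus strand: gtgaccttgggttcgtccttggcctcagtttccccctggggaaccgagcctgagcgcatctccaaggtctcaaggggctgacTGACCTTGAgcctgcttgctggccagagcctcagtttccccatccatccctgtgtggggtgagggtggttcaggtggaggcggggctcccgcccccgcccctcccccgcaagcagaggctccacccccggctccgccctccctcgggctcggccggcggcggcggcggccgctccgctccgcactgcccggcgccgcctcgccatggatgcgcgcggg

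Acsl6, which activates long-chain fatty acids, carries 1 class 5 member and 1 Bookmarked peak. It had 3.35 to 5.18 CPM after withdrawal and 5.62 to 7.06 CPM with DOX, without overlap (log2 change -0.65 ± 0.10; edgeR adjusted p = 0.000503). Gpr161, an orphan receptor of cilia with 1 class 5 member, had 1.75 to 2.88 CPM after withdrawal and 2.17 to 3.85 CPM with DOX (-0.46 ± 0.14; edgeR adjusted p = 0.0353). Hcn2, a pacemaker channel gene with 1 class 4 member, had 4.66 to 10.8 CPM after withdrawal and 6.91 to 15.04 CPM with DOX (-0.68 ± 0.19; edgeR adjusted p = 0.0224). The motif started 167, 83 and 168 bases before the start in Acsl6, Gpr161 and Hcn2. A match of letters is no evidence of binding, and 0 of the 3 genes had a lost promoter peak.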

How the data were processed

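Esrrb ChIP-seq was measured in 12 libraries and RNA-seq in 18. The submitters' processing notes name mm9, CASAVA 1.8, Bowtie and DESeq2, without roles. The peak table deposited by the authors holds a log2 height per peak and library (log2 RPKM), and columns with noco in their heading were read as mitosis. The exonic and the intronic table deposited by the authors give raw counts for each gene; 2377 intronic lines without a name were left out and 27 symbols turned into dates were restored. Reads were recovered from the heights. In each library 99.91% to 100% of values lay within 0.05 of a whole read or of 0.9 read. Values at 0.9 read were taken as empty peaks and counted as 0 reads.

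Members were found by peak centre. Heights were compared with limma 3.58.1 and counts with edgeR 4.0.16 (quasi-likelihood, TMM, R 4.3.3), over whole tables with Benjamini-Hochberg adjustment at 0.05 and withdrawn minus DOX as the direction. The edgeR fit held all 18 libraries and had 12 residual degrees of freedom. Alternatives were DESeq2 1.42.0, other scalings and filters, a replicate block, and each replicate left out; summed phases were added after seeing the data. The scripts were tested on simulated data. Named hosts were the 10 largest falls and 10 largest rises over log2 CPM of 2, hosts of the gene lists called in exons or introns, and the 5 hosts with most members; named peaks were the 6 highest of each class in interphase with DOX. Acsl6, Gpr161 and Hcn2, which fall outside that rule, were named after their values were seen. The members and gene lists were chosen with earlier results of these data known.

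Same-numbered withdrawn and DOX RNA libraries deviated together in exons in every phase (correlations 0.1142 to 0.5273), so the numbers were taken to pair them. Other numbers gave -0.4544 to 0.2426. In early G1, withdrawn replicate 2 stood closer to DOX replicate 3 (0.2426) than to DOX replicate 2 (0.1877). In introns 1 of 9 same-numbered pairs was under 0.1 (0.0916). P-values measure the spread between these libraries alone. One host gene that met the naming rule is not reported here.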

Additional observations from a re-analysis of the deposited data

How the results depend on the processing

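Equal median heights left 83 members lower in mitosis than in interphase with DOX in place of 5106, and 126 lower after withdrawal in interphase in place of 5422. Without the peaks in the lowest 25% of mean height that last count was 3575, with fewer peaks tested by construction. The 646 members lower after withdrawal in mitosis became 1407 with the replicate block, 16 without a variance trend, 36 in EKOiE libraries alone, 0 with equal medians and 0 by edgeR on reads, and 0 to 2302 leaving out single libraries. With DOX the ChIP numbers do not pair the libraries throughout (correlations 0.469, -0.306, 0.2381 and 0.1172). After withdrawal same-numbered libraries correlated at 0.4724. Other numbers gave -0.4724, the opposite value by construction with 2 libraries per group. With equal medians the median withdrawn minus DOX difference in mitosis turned to 0.19 in all members and 0.42 in class 5, and mitosis minus interphase after withdrawal to -0.0084 in class 4. Leaving out single libraries gave -2.002 to 0.041 for class 5 in the first of these contrasts, and -0.51 to 1.18 (members), -0.54 to 0.81 (class 4) and -0.49 to 1.49 (class 5) after withdrawal. Calls of hosts moved from 646 to 1213 with the replicate block and 13 with summed phases, and to 355 to 695 leaving out replicates. In early G1, 10 calls became 192 with the block, 58 by DESeq2 and 1 to 6 leaving out libraries. In late G1, 30 became 373, 142 and 5 to 19, and in G2, 64 became 468, 193 and 10 to 72, in that order of settings. In introns, 190 became 674 with the block, 306 by DESeq2, 0 with summed phases and 36 to 226 leaving out replicates. Intronic values of Lin28a (-0.064 to 0.068), Dnmt3a (-0.028 to 0.18) and Coro2b (-0.024 to 0.20) changed sign on leaving out a replicate. The causes were not tested. Of 1066 alternatives for named hosts 873 kept direction and call, and of 168 for named peaks 164 did.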
